A study of Mus musculus with 10 samples.

Results

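Ribosomal proteins of the cytosol were followed as 1 family of transcripts in the mouse motor cortex. The family was taken by gene name and not by any measured value. It holds the protein-coding rows whose names start with Rpl or Rps and a number, with Rplp0, Rplp1, Rplp2 and Rpsa, and without the S6 kinases and rows named as pseudogenes. Of 35275 rows in the table, 116 protein-coding rows matched those names, 10 S6 kinase rows and 19 pseudogene rows were dropped, and 87 members were left. These were 52 with large subunit names and 35 with small subunit names, and 83 of the 87 passed a filter of a mean of at least 0.5 FPKM that 14497 genes passed in all. FPKM counts fragments relative to the length of the gene and to the size of the library. Comparisons between genes thus depend on the lengths used, from 255 bases for Rps27 to 5130 for Rps15a among the members. Comparisons between libraries depend on the scaling. Rps19bp1 matches the rule by its name but encodes a protein that binds RPS19, and it was kept as the rule has it.

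Mice of strain C57BL/6 gave motor cortex at postnatal day 22, and 1 library was made for each biological repeat. Wild-type mice (WT, n = 5) were compared with mice that lack membralin in astrocytes by conditional knockout (KO, n = 5). Membralin, encoded by Tmem259, sits in the membrane of the endoplasmic reticulum. The labels describe the 5 mice of a genotype as biological repeats, and name neither the Cre line that deletes the gene nor the floxed alleles that the WT mice may carry. The tissue is a mixture of cells in which cells other than astrocytes keep Tmem259, and in such bulk samples fewer cells of a type and less RNA per cell cannot be told apart.

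The ribosome joins amino acids into protein as it reads a messenger RNA. Its small subunit decodes the message and its large subunit forms the peptide bond, and each is built from ribosomal RNA and a set of small, basic proteins that assemble in the nucleolus. Cells need these proteins in nearly equal numbers. Many of their messages start with a cytosine followed by a run of pyrimidines, the 5′ terminal oligopyrimidine (TOP) motif, through which mTORC1 and LARP1 set how strongly they are translated. Control of that kind acts on translation and need not show in a level of RNA, which is what was measured here. In neurons and glia, ribosomal protein messages are also carried into the processes, where proteins are made locally.

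Totals per library lay between 22793058 and 28827871 fragments, so counting error was small for all but the lowest members. Tmem259 was not lower in every KO library: it was 23.8 to 32.4 FPKM in WT, 16.9 to 26.2 FPKM in 4 KO libraries and 34.4 FPKM, the highest of the 10, in the library labelled KO3. This difference, -0.27 on the log2 scale (SE 0.16), missed the threshold (limma adjusted p = 0.275). Without the library labelled KO3 it passed, at a log2 fold change of -0.42. Among markers of the cells that a cortical sample can hold, 2 of 7 olfactory bulb markers, 4 of 6 neuroblast markers, 2 of 8 astrocyte markers, 2 of 8 microglial markers and 1 of 8 neuronal markers rose in KO, and none of any list fell. Among all genes tested 9.77% rose and 3.51% fell. None of 7 oligodendrocyte and none of 7 endothelial markers passed the test in limma. At an unadjusted p under 0.05, 7 of 7 olfactory bulb, 6 of 6 neuroblast and 4 of 8 microglial markers were higher, against 25.1% of all genes. At that threshold 3 astrocyte markers were higher and 1 lower, and 1 neuronal marker was higher and 1 lower. Of the other lists 5 oligodendrocyte markers were lower, and 1 endothelial marker was higher and 1 lower. On fragments tested with voom, 4 olfactory bulb, 4 neuroblast, 2 microglial, 2 astrocyte and 1 neuronal marker were called higher. With voom 2 oligodendrocyte markers were called lower and 0 endothelial markers were called. No marker of any list was at 0 in all libraries. The summed level of the olfactory bulb markers ranged from 4.85 to 31.5 FPKM in WT and from 14.0 to 67.5 FPKM in KO, although the tissue is labelled motor cortex.

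The start of the message is where the TOP motif lies, and RefSeq starts on GRCm38.p6 were found for 66 of the 87 members. A start on C followed by at least 4 pyrimidines was present at an annotated start of 14 of these 66 members (21.2%), and of 3.01% of 27025 genes in the same table. Annotated starts can lie some bases from the start that cells use, so this is a count of letters and not of TOP messages. The following windows hold 20 bases before the start and 20 from it, for members that the results turn on. Capitals mark the start base or, where the window meets the TOP rule, the whole run of pyrimidines from the start.
Rpl15 (chr14:18270967-18271006, minus strand): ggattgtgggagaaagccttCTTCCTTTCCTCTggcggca
Rpl35 (chr2:39005112-39005151, minus strand): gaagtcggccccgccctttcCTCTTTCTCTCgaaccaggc
Rps21 (chr2:180257359-180257398, plus strand): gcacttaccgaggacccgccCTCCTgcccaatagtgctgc
Rps27 (chr3:90213629-90213668, minus strand): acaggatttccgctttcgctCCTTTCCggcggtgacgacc
Rps27rt (chr9:114982720-114982759, minus strand): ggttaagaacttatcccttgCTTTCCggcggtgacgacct
Rplp0 (chr5:115559447-115559486, plus strand): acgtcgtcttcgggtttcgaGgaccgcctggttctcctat
Rps2 (chr17:24720043-24720082, plus strand): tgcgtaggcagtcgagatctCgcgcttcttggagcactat

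Rpl15 had the longest run among the windows shown, 13 pyrimidines, followed by Rpl35 with 11. Rps27 and Rps27rt share the letters CTTTCC and those after them in the windows. The run of Rps27 starts 1 base earlier, and the letters before CTTTCC differ. The annotated starts of Rplp0 and Rps2 lie on a G and on a C that no pyrimidine run follows. In the 300 bases around each start (250 before and 50 from it), the letters CCGGAAG, a core that ETS factors bind, were present on either strand for 39.4% of matched members and 9.93% of all genes. The letters AAGATGGC, which YY1 binds, were present for 9.09% of matched members and 3.19% of all genes. The letters TATAAA were present for 10.6% and 15.7%, respectively. Rpl7, Rpl29, Rpl23a and Rplp1 had no entry.

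The ribosomal protein transcripts were among the most abundant in the cortex. Of the 83 members that passed the filter, 56 had a mean of at least 100 FPKM, 25 lay between 10 and 100 FPKM, and 2 lay below 10 FPKM. Their median was 141 FPKM, and 8 members were among the 100 genes with the highest means. Rplp1, a protein of the stalk that recruits elongation factors to the large subunit, was the highest, at 681 ± 98.5 FPKM in WT mice and 732 ± 68.2 FPKM in KO mice (SD, n = 5 each).

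The next 4 by mean level were all of the small subunit. Rps14, a protein of the platform of the small subunit, averaged 437 ± 65.8 FPKM in WT mice and 399 ± 57.3 FPKM in KO mice (SD, n = 5 each). Rps21 averaged 414 ± 72.5 and 367 ± 25.8 FPKM, and Rps2, which lies near the entry of the messenger RNA, averaged 372 ± 56.2 and 402 ± 74.2 FPKM (SD, n = 5 each). Rps29 averaged 368 ± 90.9 and 364 ± 73.0 FPKM (SD, n = 5 each). The SDs of these neighbours overlap, so their order beneath Rplp1 is not settled by 5 mice a group. Rps15 (356 ± 67.5 and 350 ± 38.7 FPKM), Rpl13a (329 ± 63.7 and 319 ± 27.5 FPKM) and Rps27 (297 ± 41.3 and 313 ± 24.8 FPKM) completed the 8 highest, with WT before KO and SD over n = 5 each. None of these 8 passed the test, and their log2 fold changes on log2(FPKM + 1) lay between -0.16 for Rps21 and 0.11 for Rplp1.

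**Figure D1:**
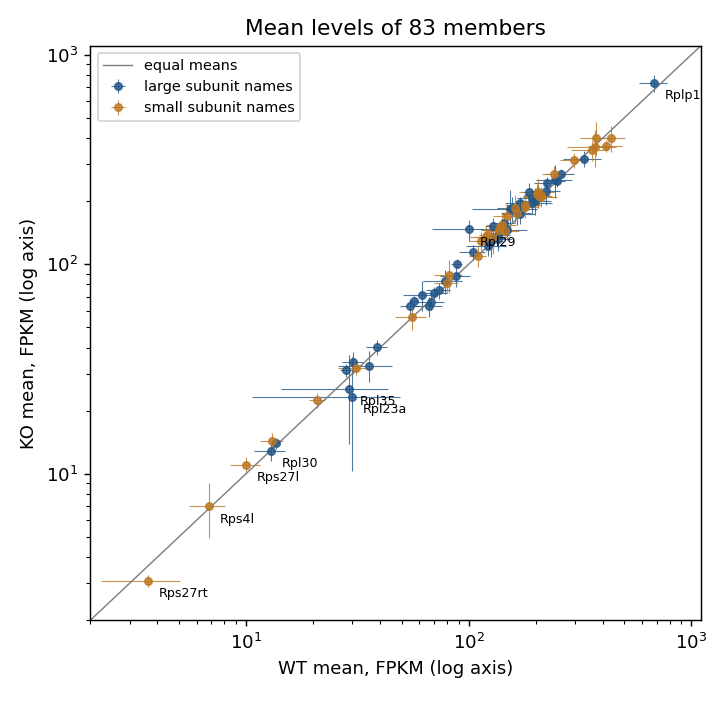
Mean FPKM of each of the 83 members in WT (horizontal, log axis) and in KO (vertical, log axis), with bars of 1 SD over 5 libraries and blue and orange points for large and small subunit names. The points lie along the grey line of equal means over the whole range, from Rps27rt at 3.64 and 3.08 FPKM to Rplp1 at 681 and 732 FPKM, with the widest bars for Rpl23a and Rpl35.

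The 4 rows of the family below the filter were close to 0. Rpl10l, an autosomal copy of the X-linked Rpl10 that is known from the testis, had 0 fragments in all 10 libraries. Rpl39l, another copy known from the testis, had 8 fragments over the 5 WT libraries and 21 over the 5 KO libraries, against 6220 and 6354 for Rpl39. Rpl3l, the copy of Rpl3 known from striated muscle, had 34 and 42 fragments. Rpl24 encodes a protein of every large subunit, yet its row held 13 fragments in WT and 21 in KO. The whole of that row but its first bases is covered on the same strand by the row Gm28037, which was listed at 0 in every library, and whether this sets the value of Rpl24 was not tested.

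The 6 listed copies that passed the filter lay mostly below their standard partners in FPKM. Rps4l averaged 6.82 ± 1.26 FPKM in WT mice and 6.995 ± 2.04 FPKM in KO mice, against 149 ± 20.2 and 170 ± 23.6 FPKM for Rps4x (SD, n = 5 each). Rps27l averaged 10.04 ± 1.54 and 10.98 ± 1.04 FPKM, and Rpl36al averaged 28.1 ± 1.80 and 31.1 ± 2.34 FPKM, against 69.6 ± 10.04 and 72.7 ± 4.78 FPKM for Rpl36a (SD, n = 5 each). Rpl7l1, a relative of Rpl7 in ribosome assembly, averaged 13.7 ± 0.54 and 14.0 ± 0.89 FPKM (SD, n = 5 each). Rpl22l1 was the exception, at 61.5 ± 10.6 FPKM in WT mice and 71.2 ± 11.7 FPKM in KO mice, against 30.3 ± 3.42 and 34.0 ± 4.01 FPKM for Rpl22 (SD, n = 5 each). This order rests on the gene lengths used, 489 bases for Rpl22l1 and 2051 for Rpl22. In fragments Rpl22l1 was the lower, with 3943 in WT and 4339 in KO against 8087 and 8738. None of the 6 copies tested was called by limma or by voom, and 1, Rpl36al, had an unadjusted p under 0.05 (log2 fold change 0.14, limma adjusted p = 0.134). Rps27rt averaged 3.64 ± 1.40 and 3.08 ± 0.21 FPKM (SD, n = 5 each). Its transcript was identical to that of Rps27 over the 341 aligned bases, so reads of these genes could be split between them, and it lies inside Osbpl10 on the opposite strand.

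The family as a whole differed little between the genotypes. Of the 83 members tested, 4 rose in KO (4.82%) and 0 fell. Among all 14497 genes 13.3% were called, 9.77% higher and 3.51% lower, so the share of members called was below the background. At an unadjusted limma p under 0.05 there were 9 members (10.8%), all higher, against 32.8% of all genes, and 0 members were lower at that threshold or by voom. The KO libraries were all above the WT libraries for 2 members (2.41%, background 5.7%) and all below for 0 members (background 1.85%). The median log2 fold change was 0.07 over the members and 0.08 over all genes tested. It was 0.06 over the 48 large subunit names and 0.09 over the 35 small subunit names.

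The intervals say how large a difference could have gone unseen. For 78 of the 83 members (94.0%) the 95% interval of the log2 fold change lay within 0.5 of 0 on both sides, against 82.2% of all genes tested. The members whose intervals reached beyond 0.5 were Rpl29, which was called, Rpl3, Rpl23a, Rpl35 and Rps27rt. The members were not measured more tightly than other genes. Their median SE was 0.10, against 0.08 over all genes tested, and a larger SE makes a call less likely at a given fold change. The quartiles of the fold changes were 0.01 and 0.13 over the members, and -0.03 and 0.18 over all genes tested. The direction of the small common difference followed the scaling. Of the 83 members 66 had a positive fold change on FPKM, as had 10073 of all 14497 genes tested. The count of members was 52 after quantile normalization, 36 after median-of-ratios scaling and 37 after removal of a trend with gene length. The median of the members was then 0.03, -0.02 and -0.03, in the same order, and that of all genes was -0.00, 0.00 and 0.00. Over all genes the same step from FPKM to median-of-ratios scaling turned 1417 calls higher and 509 lower into 625 higher and 901 lower.

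**Figure D2:**
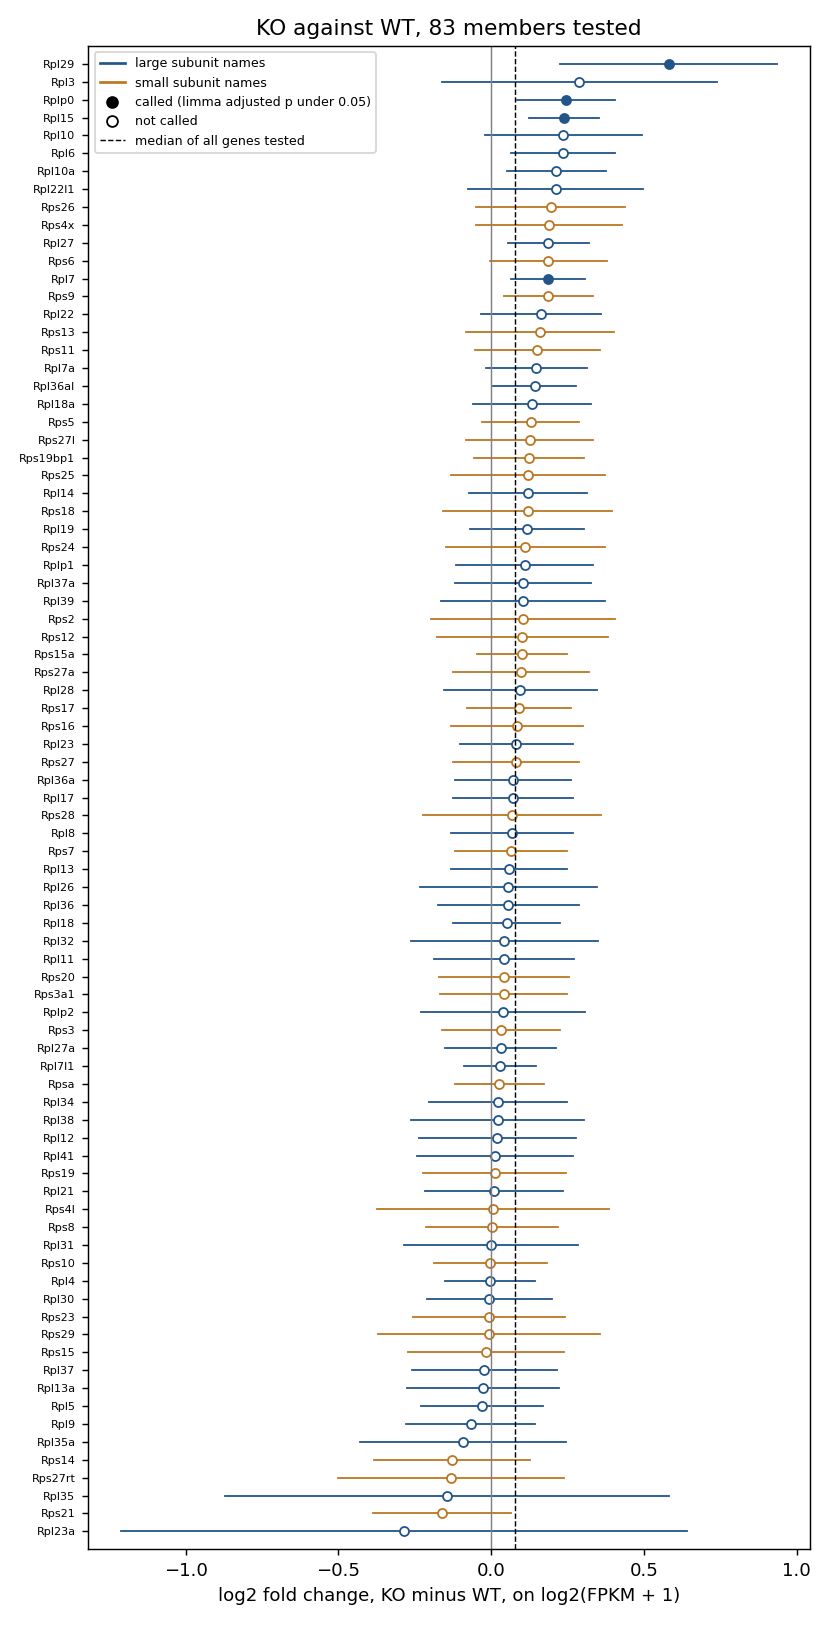
Log2 fold change, KO minus WT on log2(FPKM + 1), of the 83 members tested, sorted, with 95% intervals from limma; filled points mark the 4 called members and the dashed line marks the median of all genes tested. Most points lie close to that line, the 4 filled points are all of the large subunit, and Rpl23a at -0.28 has the widest interval.

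The members that rose were Rpl15, Rpl29, Rpl7 and Rplp0, all of the large subunit. Rpl15 (ENSMUSG00000012405, chromosome 14, 18267823 to 18271391, minus strand, mm10), a core protein of the large subunit, measured 54.7, 58.4, 53.9, 60.1 and 56.2 FPKM in WT1 to WT5. Its levels were 68.5 and 68.9 FPKM in KO1 and KO2, 60.9 FPKM in the library labelled KO3, and 69.2 and 67.8 FPKM in KO4 and KO5. The groups did not overlap, with the library labelled KO3 next to the highest WT library. Rpl15 rose by a log2 fold change of 0.24 (SE 0.05, limma adjusted p = 0.0211, exact permutation p = 0.00794, the smallest that 5 against 5 can give). It overlaps Nkiras1 on the opposite strand, which averaged 7.47 FPKM.

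Rpl7 (ENSMUSG00000043716, chromosome 1, 16101295 to 16104662, minus strand), a large subunit protein that binds RNA, measured 83.1, 84.7, 86.4, 94.3 and 93.2 FPKM in WT1 to WT5. Its levels were 97.2, 108, 96.2, 103 and 98.2 FPKM in KO1, KO2, the library labelled KO3, KO4 and KO5. The groups did not overlap, but the library labelled KO3 and WT4 were 96.2 and 94.3 FPKM, a narrow gap. Its log2 fold change was 0.19 (SE 0.06, limma adjusted p = 0.0455, exact permutation p = 0.00794).

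Rplp0 (ENSMUSG00000067274, chromosome 5, 115559467 to 115563727, plus strand) encodes the protein that anchors the stalk to the large subunit, and is widely used as a reference gene in PCR. Its levels were 199, 180, 173, 182 and 194 FPKM in WT1 to WT5, and 208, 224, 192, 248 and 233 FPKM in KO1, KO2, the library labelled KO3, KO4 and KO5. The groups overlapped through the library labelled KO3, which lay below WT1 and WT5. Its log2 fold change was 0.25 (SE 0.07, limma adjusted p = 0.0468, exact permutation p = 0.0238). The other stalk proteins did not pass the test: Rplp1 had a log2 fold change of 0.11 (limma adjusted p = 0.485) and Rplp2 of 0.04 (limma adjusted p = 0.857).

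Rpl29 (ENSMUSG00000048758, chromosome 9, 106429454 to 106431568, plus strand), a small protein of the large subunit, had the largest fold change of the family. Its levels were 77.5, 82.2, 84.0, 154 and 104 FPKM in WT1 to WT5, and 118, 151, 147, 164 and 152 FPKM in KO1, KO2, the library labelled KO3, KO4 and KO5. WT4 lay among the KO libraries, so the groups overlapped, while the other 4 WT libraries lay below all KO libraries. The log2 fold change was 0.58 (SE 0.16, limma adjusted p = 0.0387, exact permutation p = 0.0397). Over the 10 libraries Rpl29 had the third widest spread around the common level of the family, after Rpl23a and Rpl35.

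These 4 calls, like those over the whole table, changed when single mice were left out. Without WT1, KO1, KO2 or KO4 there were 0 members called by limma, and 2, 575, 2 and 2 genes in all, against 1926 with every library; 8, 17, 8 and 8 members then had an unadjusted p under 0.05. Rpl15 alone was called without WT2, without WT3 or without KO5, and Rpl15 and Rpl10a were called without WT5. Without WT4 there were 3, Rpl29, Rpl15 and Rpl7. Without the library labelled KO3 there were 8 members called, Rpl15, Rplp0, Rpl27, Rpl6, Rpl10a, Rpl7, Rpl29 and Rps9, and 3769 genes in all. Over the 10 fits the log2 fold change of Rpl15 lay between 0.22 and 0.27, and that of Rpl29 between 0.50 and 0.75. Median-of-ratios scaling and removal of the gene length trend moved the fold changes of Rpl15, Rpl7 and Rplp0 more, but not that of Rpl29. After quantile normalization the fold changes were 0.22 for Rpl15, 0.17 for Rpl7, 0.21 for Rplp0 and 0.53 for Rpl29. After median-of-ratios scaling they were 0.15 for Rpl15, 0.10 for Rpl7, 0.15 for Rplp0 and 0.49 for Rpl29, and with the gene length trend removed 0.13, 0.07, 0.13 and 0.49, and under either no member was called by limma, with 3 at an unadjusted p under 0.05. With the mean level of the olfactory bulb markers as a covariate no gene of the table and no member was called by limma. At an unadjusted p under 0.05 there were then 2815 genes and 5 members. The fold changes in that fit were 0.24 for Rpl15, 0.14 for Rpl7, 0.32 for Rplp0 and 0.45 for Rpl29. The median of the members was 0.10, with 72 of 83 positive. This mean marker level, on log2(FPKM + 1), was 0.65 to 2.23 in WT and 1.34 to 3.17 in KO. The covariate thus varied in part with genotype. With that covariate and without the library labelled KO3 Rpl15 and Rplp0 were called.

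**Figure D3:**
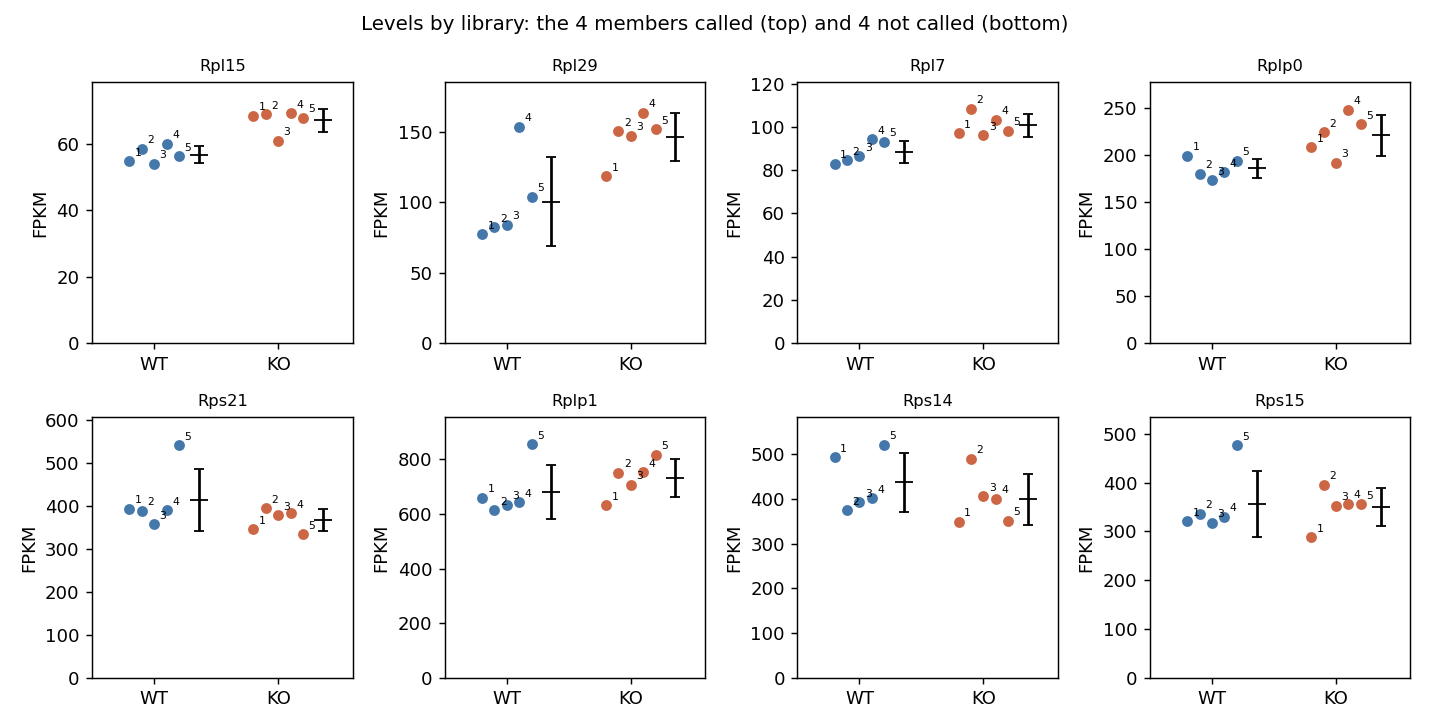
FPKM by library for the 4 called members (top row) and for Rps21, Rplp1, Rps14 and Rps15 (bottom row); each point is a library, numbered by replicate, and the black bars give the mean and SD over 5 libraries. For Rpl15 and Rpl7 all KO points lie above all WT points, for Rpl29 WT4 lies with the KO points, and for Rps21, Rplp1 and Rps15 WT5 stands above the rest of its group.

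No member fell. The largest negative differences were those of Rpl23a, Rps21, Rpl35 and Rps27rt, and none passed the test. Rps21, a small protein of the small subunit, measured 393, 389, 357, 390 and 541 FPKM in WT1 to WT5, and 345, 395, 378, 382 and 335 FPKM in KO1, KO2, the library labelled KO3, KO4 and KO5. The groups overlapped, and WT5 alone was far above the others. The log2 fold change was -0.16 (95% interval -0.39 to 0.07, limma adjusted p = 0.303). Rps27rt had a log2 fold change of -0.13 (limma adjusted p = 0.626), and Rps14 of -0.13 (limma adjusted p = 0.471).

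Rpl23a and Rpl35 split the libraries in a way that did not follow genotype. Rpl23a (chromosome 11, 78180932 to 78183584, minus strand), which lies at the exit of the tunnel for the new protein, measured 35.9, 12.9, 27.5, 13.6 and 59.4 FPKM in WT1 to WT5. Its levels were 13.6, 38.9, 35.7, 13.6 and 14.4 FPKM in KO1, KO2, the library labelled KO3, KO4 and KO5. It was high in WT1, WT3, WT5, KO2 and the library labelled KO3, and low in the other 5.

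Rpl35 (chromosome 2, 39001580 to 39005624, minus strand), also at the tunnel exit, measured 34.2, 13.9, 26.1, 19.2 and 51.1 FPKM in WT1 to WT5. Its levels were 16.7, 42.6, 32.3, 17.0 and 18.5 FPKM in KO1, KO2, the library labelled KO3, KO4 and KO5. The same 5 libraries were the highest.

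Both genotypes held libraries of either kind, so the group differences were small against their error. The log2 fold change was -0.28 for Rpl23a (SE 0.43, limma adjusted p = 0.675) and -0.14 for Rpl35 (limma adjusted p = 0.797). Without WT5 both turned positive, at 0.01 and 0.09. Rpl23a overlaps Tlcd1, which averaged 6.67 FPKM, and Rpl35 overlaps Wdr38, which averaged 0.05 FPKM, each on the opposite strand. Whether this overlap, or reads shared with pseudogene copies, sets the split was not tested.

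Rps2 was low where a pseudogene row was high. Rps2 (chromosome 17, 24718116 to 24721929, plus strand) measured 416, 417, 404, 302 and 320 FPKM in WT1 to WT5, and 415, 444, 299, 490 and 361 FPKM in KO1, KO2, the library labelled KO3, KO4 and KO5. The row Rps2-ps10, whose transcript differs from that of Rps2 by 6 mismatches over 934 aligned bases, measured 155 and 172 FPKM in WT4 and WT5, 145 FPKM in the library labelled KO3 and 207 FPKM in KO5. It lay between 0.395 and 1.36 FPKM in the other 6 libraries. WT4, WT5, the library labelled KO3 and KO5 were also the 4 libraries with the lowest Rps2.

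The pseudogene row took 29.9% to 33.6% of the fragments of both rows in those 4 libraries and at most 0.245% in the other 6. The sum of both rows, relative to library size, had a coefficient of variation of 9.68% over the 10 libraries, against 16.5% for Rps2 alone. The log2 ratio of the KO to the WT mean was 0.11 for Rps2 alone and 0.11 for the sum (exact permutation p = 0.54 and 0.238). Rpl3, a protein near the centre where peptide bonds form, also had a close pseudogene row, Rpl3-ps1, with 2 mismatches over 1210 aligned bases. Rpl3 measured 125, 109, 126, 175 and 229 FPKM in WT1 to WT5, and 178, 237, 198, 187 and 121 FPKM in KO1, KO2, the library labelled KO3, KO4 and KO5. Its pseudogene row took between 6.59% and 29.9% of the fragments of both. That row was highest in WT1, at 82.8 FPKM, while Rpl3 was lowest in WT2, where the row was at 32.4 FPKM. The coefficient of variation was 22.7% for the sum and 27.4% for Rpl3 alone.

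For Rpl3 the sum changed the size of the difference. The log2 ratio of the KO to the WT mean was 0.27 for Rpl3 alone and 0.13 with the fragments of the pseudogene row added (exact permutation p = 0.278 and 0.532), and both groups overlapped. Rpl3 also overlaps Syngr1 on the opposite strand, which averaged 195 FPKM, and the sources used here do not say whether reads were counted by strand. There were 220 rows typed as pseudogenes under ribosomal protein names. The 19 dropped rows typed as protein-coding, and pseudogenes under other names, are not among them. Of the 220 rows 39 passed the filter, 5 had a mean of at least 5 FPKM, and none was called by limma.

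**Figure D4:**
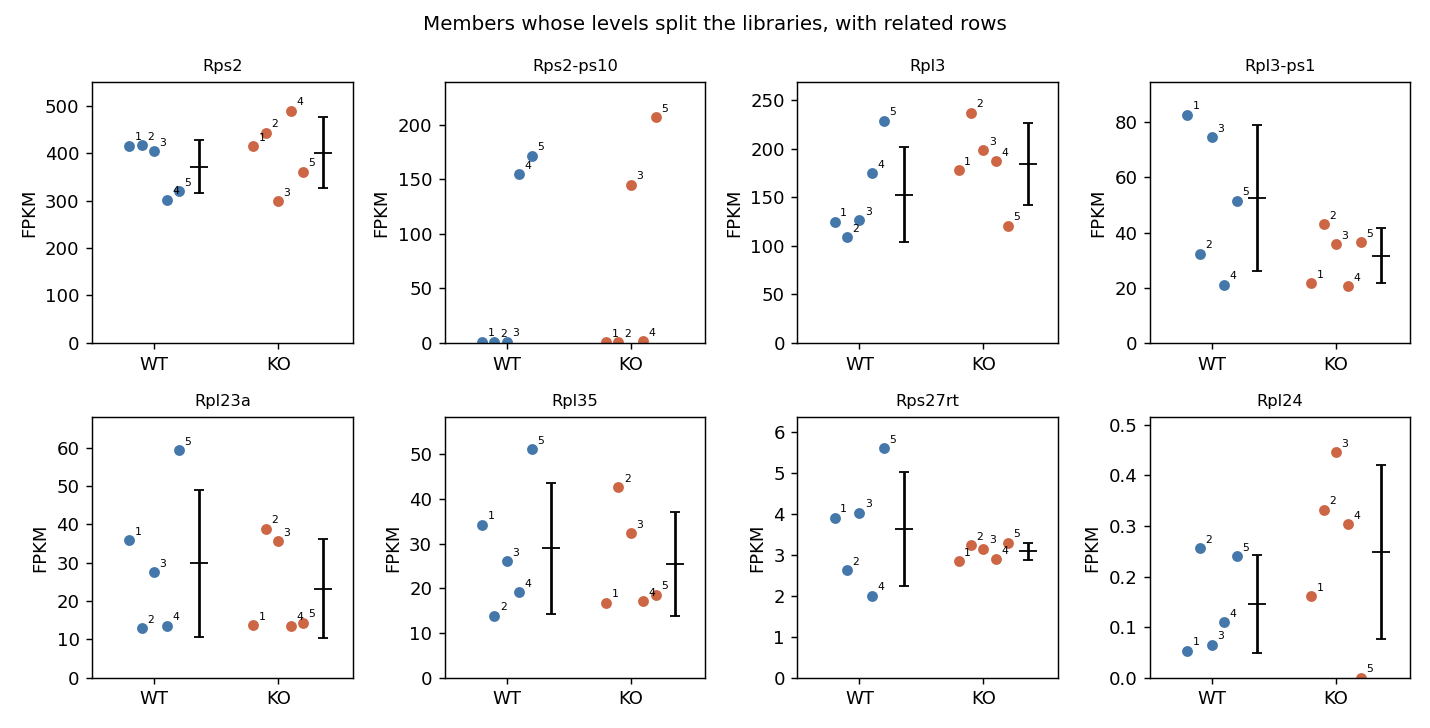
FPKM by library for Rps2, Rps2-ps10, Rpl3 and Rpl3-ps1 (top row) and for Rpl23a, Rpl35, Rps27rt and Rpl24 (bottom row); each point is a library, numbered by replicate, and black bars give the mean and SD over 5 libraries, left out where the SD exceeds the mean. Rps2-ps10 is near 0 in 6 libraries and between 145 and 207 FPKM in 4, and WT1, WT3, WT5, KO2 and the library labelled KO3 are the high points of Rpl23a and Rpl35.

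The family moved largely together from mouse to mouse. The values that follow cover all 83 members tested, with Rps2, Rpl3, Rpl23a and Rpl35 included. Over the 10 libraries the mean correlation between pairs of members was 0.57, against 0.07 between pairs of all genes tested, and 92.1% of member pairs had a positive value. All these pairs share the same 10 libraries and their scaling, so they are a description and not independent evidence. The first principal component of the 83 members held 59.4% of their variance. The members were not scaled to equal spread, so those with the widest spread, Rpl23a and Rpl35, weigh more in it. The median of the members in a library, as a deviation from their means on the log2 scale, was -0.06, -0.17, -0.11, -0.06 and 0.26 in WT1 to WT5. It was -0.15, 0.18, 0.01, 0.10 and 0.06 in KO1, KO2, the library labelled KO3, KO4 and KO5.

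WT5 and KO2 were thus the highest libraries, and WT2 and KO1 the lowest, with both genotypes at either end. WT5 had the highest value of the 10 for 54 of the 83 members and KO2 for 18. The lowest value was in KO1 for 24 members, in WT2 for 19, in WT3 for 17 and in WT1 for 14. Large and small subunit names moved alike: their medians were 0.28 and 0.23 in WT5 and -0.15 and -0.15 in KO1. The median of all genes tested was -0.07 in WT5 and 0.06 in KO1, on the other side of 0 from the members. Genes outside the family that are shorter than 1500 bases had medians of -0.00 in WT5 and 0.04 in KO1.

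The members took 1.15%, 1.06%, 1.09%, 1.13% and 1.42% of all fragments in WT1 to WT5, and 1.08%, 1.36%, 1.20%, 1.28% and 1.23% in KO1, KO2, the library labelled KO3, KO4 and KO5. The means were 1.17 ± 0.14% in WT and 1.23 ± 0.10% in KO (SD, n = 5 each), a difference smaller than either SD, and the ranges overlapped. Single libraries bore on the size of the common difference. Of the 83 members 81 had a positive fold change without WT5, at a median of 0.14, and 74 without KO1, at a median of 0.12. The median of all genes was 0.07 in both fits. At an unadjusted limma p under 0.05 there were 27 and 17 members, against 4253 of 14504 and 4056 of 14501 genes. The count of positive fold changes was 55 without WT2 and 53 without KO2, each at a median of 0.04, against 0.08 over all genes.

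**Figure D5:**
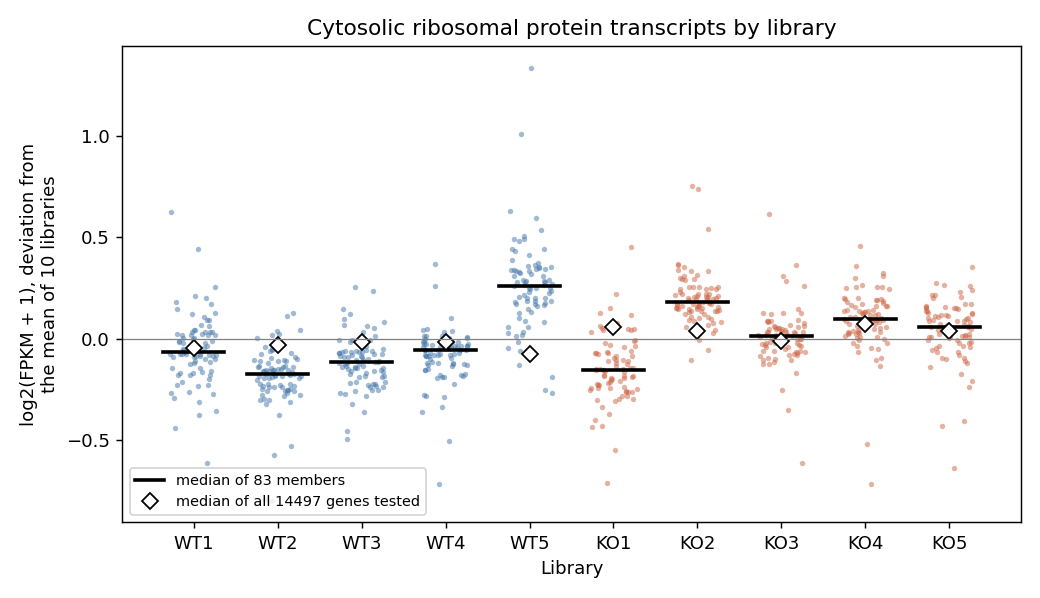
Deviation of each of the 83 members from its mean over the 10 libraries, on log2(FPKM + 1), by library (blue WT, orange KO); black bars are medians over the members and diamonds are medians over all 14497 genes tested. The members sit above 0 as a block in WT5 (median 0.26) and KO2 (0.18) and below 0 in WT2 (-0.17) and KO1 (-0.15), while the diamonds stay within 0.08 of 0.

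Members grouped by function gave the same picture. Rpl5 and Rpl11, which with 5S RNA form the particle that can bind MDM2 when ribosome assembly fails, had log2 fold changes of -0.03 and 0.04 (limma adjusted p = 0.85 and 0.814). Neither was called by voom nor had an unadjusted p under 0.05. Rps27a, which encodes ubiquitin fused to a small subunit protein, had a log2 fold change of 0.10 (limma adjusted p = 0.536). Of 19 members in which mutations are known from Diamond-Blackfan anaemia, 1, Rpl15, rose and none fell in limma, with 2 at an unadjusted p under 0.05 and 1 called by voom, against 9.77% of all genes called higher and 32.8% at an unadjusted p under 0.05. Their median log2 fold change was 0.06. The 14 members tested with a TOP start had a median log2 fold change of 0.06 with 1 called, and the 48 matched and tested members without it had 0.08 with 1 called, both below the 13.3% of all genes.

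Ribosomal proteins outside the name rule were close to the family. Fau, which encodes RPS30 fused to a ubiquitin-like protein, averaged 194 ± 20.04 FPKM in WT mice and 206 ± 24.7 FPKM in KO mice (SD, n = 5 each), with a log2 fold change of 0.09 (limma adjusted p = 0.557). Its sign turned under median-of-ratios scaling. Rack1, a scaffold on the small subunit that the table lists as Gnb2l1, averaged 27.3 ± 1.04 and 30.6 ± 2.77 FPKM (SD, n = 5 each), with a log2 fold change of 0.15 (limma adjusted p = 0.105). Neither was called by limma or voom, and 1, Rack1, had an unadjusted p under 0.05.

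The share of genes that rose was below the background of 9.77% in 4 of 6 lists for the wider machinery of translation, and above it for elongation factors (2 of 10) and other TOP messages (2 of 19). Other measures were above their background in some lists: 16 of 34 initiation factors, 13 of 40 ribosome biogenesis genes and 9 of 19 other TOP messages were higher at an unadjusted p under 0.05, against 25.1% of all genes and 10.8% of the ribosomal protein members. All KO libraries lay above all WT libraries for 6 of 34 initiation factors, 4 of 40 biogenesis genes and 3 of 10 genes listed with elongation factors. The same held for 2 of 19 other TOP messages, 3 of 28 mTORC1 genes and 1 of 9 snoRNA host genes. On this measure all 6 lists were above the 5.7% of all genes. All KO libraries lay below all WT libraries for 1 of 28 mTORC1 genes and for no gene of the other lists, against 1.85% of all genes. At an unadjusted p under 0.05, 1 of 34 initiation factors was lower, and no gene of the other lists was. Among 34 initiation factors 3 rose and none fell: Eif3l (log2 fold change 0.24, limma adjusted p = 0.0250), Eif2s2 (0.27, limma adjusted p = 0.0299) and Eif3c (0.22, limma adjusted p = 0.0329). Eif3l and Eif3c encode subunits of the factor that binds the small subunit, and Eif2s2 encodes a subunit of the factor that brings the initiator tRNA. The median of the 34 was 0.13. Of 10 genes listed with the elongation factors 2 rose and none fell, and neither is an elongation factor in the strict sense. Eef1e1 (0.36, limma adjusted p = 0.0190) encodes a protein of the multisynthetase complex, and Eef1akmt1 (0.30, limma adjusted p = 0.0186) encodes a methyltransferase that acts on eEF1A.

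Of 19 other genes known for TOP messages, which share members with those lists, Npm1 (0.24, limma adjusted p = 0.0234) and Hnrnpa1 (0.29, limma adjusted p = 0.0388) rose and none fell. Npm1, a chaperone of the nucleolus, was also counted among 40 genes of ribosome biogenesis, of which 3 rose and none fell. The others were Nop14 (0.23, limma adjusted p = 0.0378), needed to process the small subunit RNA, and Polr1d (0.24, limma adjusted p = 0.0441), a subunit of RNA polymerases I and III. Among 28 genes of the mTORC1 pathway, Rraga (0.33, limma adjusted p = 0.0302), a GTPase that recruits mTORC1 to the lysosome, and Lamtor4 (0.28, limma adjusted p = 0.0265), a subunit of its anchor there, rose and none fell. None of 9 snoRNA host genes tested was called by limma or voom, with 1 at an unadjusted p under 0.05. The 11 calls named in these lists depended on the settings: 10 were lost after median-of-ratios scaling and 10 with the gene length trend removed. All 11 were lost with the olfactory bulb covariate and without WT1, KO2 or KO4, where 0 or 2 genes of the whole table were called, and none was lost without the library labelled KO3.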

How the data were processed

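RNA from the motor cortex of 10 mice was extracted with a Kurabo kit and made into NEBNext Ultra libraries, per the labels' protocols. The authors deposited FPKM per gene and library with gene lengths and coordinates. Per the submitters' processing notes, DESeq2 and the build mm10 were used, in roles that are not stated. Which aligner, counting tool, annotation release and strand setting were used is not given in the sources used here. FPKM times gene length gave whole fragments for 100% of values above 0 (within 0.02). Groups and replicate numbers came from sample titles. P-values measure the spread between these mice.

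The genotypes were compared on log2(FPKM + 1) with limma 3.58.1 (R 4.3.3), with a trend and genotype as the only term, for genes averaging at least 0.5 FPKM. Limma p-values were two-sided and adjusted over all 14497 genes by Benjamini-Hochberg, and a gene was called when adjusted p was under 0.05. Fold changes on this scale understate those of low genes. Exact permutation tests used 252 assignments. "Rose" and "fell" are used of called genes only. The fit was tested on simulated data in which genes vary independently with a common dispersion. Such data hold no shifts shared by genes of a library, so the test does not bear on calls that change when a library is left out. Transcripts of GENCODE M21 were aligned locally with Biopython 1.88, and start sequences came from RefSeq on GRCm38.p6.

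The members and lists were chosen with earlier results of these data known. The text names Tmem259, the 8 highest members, called members, the 4 largest negative ones, members below the filter and listed paralogs with their partners. It also names Fau and Rack1, and up to 3 genes of each list with the lowest p. Rps2-ps10, Rpl3-ps1, Rps19bp1, members called only when a library was left out and overlapping genes were chosen after their values were seen. A gene within that rule was left out here. Alternatives covered the pseudocount, filter, scaling, variance model (limma voom on fragments), gene length, a replicate block, olfactory bulb markers, the threshold and each library left out. The covariate and the length trend without the library labelled KO3, the restriction by Omp, and the sums with pseudogene rows were chosen after seeing the data.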

Additional observations from a re-analysis of the deposited data

Results flagged for a closer look

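In 7 of 66 groups of 5 values examined, the highest or lowest library stood apart from the other 4 by a larger share of the range than Dixon's limit allows, which chance gives in about 1 of 20 groups. Of the 7, 5 were WT5. They were Rps21 at 541 FPKM, Rplp1 at 855 FPKM, Rps15 at 476 FPKM, the share of fragments on the family at 1.42%, and the median deviation of the family at 0.26 on the log2 scale. These values are not independent of each other, since the members moved together in that library. Rpl39 stood apart in KO2 at 102 FPKM, and Rpl15 in the library labelled KO3 at 60.9 FPKM, the lowest of its group and above all WT libraries.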

How the results depend on the processing

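The number of members that rose (4 in limma on FPKM) was the same with a pseudocount of 0.1, a filter of 5 FPKM or voom on recovered fragments, which called 2132 genes. It was 1 without a filter (465 genes called), 2 after quantile normalization, 0 after median-of-ratios scaling and 0 after removal of the gene length trend. It was 0 with the olfactory bulb markers as a covariate (0 genes called), and 8 at an adjusted p under 0.1 (3546 genes called). Among alternatives chosen after seeing the data it was 2 with the covariate and without the library labelled KO3, 1 with the length trend removed and without that library, and 0 in the 6 libraries with Omp of at least 1 FPKM (1 gene called). Leaving out each library in turn gave 0 to 8 members and 2 to 3769 genes called, against 1926 with all. In no alternative was a member called lower. The cause of these changes was not tested, apart from the fewer libraries or more genes that some of them hold.

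With a replicate block 3 members (Rpl29, Rpl15 and Rpl6) and 1271 genes were called. The numbers in the titles were not taken to pair the mice, because the correlation of deviations between mice of the same number lay between -0.06 and 0.14, and 2 of 5 WT libraries correlated best with their own number.

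Of 714 values of 33 single results under alternatives, 35 changed sign, 194 kept their sign and lost the call, and 2, both of Tmem259, gained it. After median-of-ratios scaling the log2 fold change was -0.049 for Rpl11, -0.053 for Rplp2 and -0.0039 for Fau, and after quantile normalization -0.027 for Rpl11 and -0.021 for Rplp2. With the length trend removed it was -0.014 for Rps2, -0.068 for Rpl11, -0.074 for Rplp2, -0.013 for Rps27a and -0.0057 for Fau, and without the library labelled KO3 as well -0.076 for Rpl11, -0.11 for Rplp2, -0.020 for Rps27a and -0.019 for Fau. With the olfactory bulb covariate it was 0.021 for Rps27rt, 0.013 for Rpl5 and -0.015 for Rplp2, and without the library labelled KO3 as well 0.013, 0.019 and -0.025. In the libraries with Omp of at least 1 FPKM it was 0.21 for Rpl23a, 0.0058 for Rps21, 0.16 for Rpl35, 0.050 for Rps27rt, 0.040 for Rps14, 0.13 for Rpl5 and -0.0025 for Rplp2. Over the fits without 1 library it ranged from -0.016 to 0.13 for Rpl11, -0.52 to 0.014 for Rpl23a, -0.36 to 0.090 for Rpl35, -0.077 to 0.048 for Rpl5, -0.026 to 0.15 for Rplp2 and -0.27 to 0.010 for Rps27rt. Depth limits the members below the filter and Rps27rt, which had 173 fragments over the WT and 142 over the KO libraries.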

Other observations

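The 4 libraries in which Rps2-ps10 held 29.9% to 33.6% of the fragments of both rows were also the 2 with the highest Tmem259 in each genotype, at 32.4 FPKM in WT4, 30.4 FPKM in WT5, 34.4 FPKM in the library labelled KO3 and 26.2 FPKM in KO5.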
